A study of Mus musculus with 12 samples.

Results

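The clusters described here were intergenic clusters with a sequence listed once. A cluster was a stretch of genome on which reads of a PAR-CLIP experiment piled up. Of the 4762 clusters listed for the series, 1418 (29.8%) lay off the mitochondrial genome, had an exact sequence that occurred once in the list, and had a midpoint inside no GENCODE vM21 gene of any kind on either strand. They held 79459 of the 553902 reads summed over the list (14.3%). For comparison, 1822 clusters with a sequence listed once lay inside genes, 1345 of them in introns on one strand or the other, and 934 intergenic clusters had a sequence listed more than once.

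The series had 12 libraries of neural stem cells grown from female C57BL/6 embryos of stage E14.5, in 3 groups of 4. One group was Smchd1GFP/GFP and crosslinked, another was Smchd1GFP/GFP with the title No Crosslink, and the last was untagged Smchd1+/+ and crosslinked. All groups received 100 µM 4-thiouridine for 24 hours, and the protocol text gives 0.15 J/cm2 of light at 365 nm for every sample, the No Crosslink samples included. Nothing in the labels says whether the samples of a group came from separate embryos. The list has 1 read count per cluster and no value per library, so no group could be set against another and no value below has a replicate error. Neither the libraries that supplied its reads nor any subtraction of controls is stated in the sources, so a read count is not a measure of binding above a control.

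PAR-CLIP joins RNA that carries 4-thiouridine to bound protein with ultraviolet light and sequences what is recovered with the protein. Smchd1 is a chromatin protein of the structural maintenance of chromosomes family that takes part in X inactivation and in the silencing of imprinted and clustered genes. RNA from between genes is known to arise when transcription runs past the end of a gene, on the strand of that gene, when a promoter also fires backwards, on the strand opposite to its gene, and from enhancers and unannotated transcripts.

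The label single-copy held only in part. The exact sequence of each of the 1418 clusters occurred once in the list, yet 210 of them (in 44 sequence families) had 30 consecutive bases in common with another cluster of the list in one orientation or the other. The other 1208 (85.2%) shared no such word and are called alone in their family below. This was judged within the list, so a cluster alone in its family can still have copies elsewhere in the genome. Repeats were not looked up, so whether any cluster is part of one was not tested. The 2 kinds differed in read count and in their 5′ ends, as described below. The first set of sequences is shown because these clusters had the most reads, each from another sequence family. All are on mm10 and run 5′ to 3′ on the strand of the cluster, and capitals mark a leading AC, the start of most clusters.
5671 reads, family of 15, chr6:44793118-44793212, plus strand: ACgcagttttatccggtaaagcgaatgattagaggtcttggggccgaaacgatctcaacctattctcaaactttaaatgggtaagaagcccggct
2776 reads, family of 25, chr3:5860359-5860549, plus strand: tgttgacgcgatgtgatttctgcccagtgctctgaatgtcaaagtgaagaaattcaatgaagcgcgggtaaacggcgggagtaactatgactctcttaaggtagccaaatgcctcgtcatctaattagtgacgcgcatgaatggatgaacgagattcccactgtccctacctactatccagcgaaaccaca
2767 reads, family of 11, chr6:3200851-3200989, minus strand: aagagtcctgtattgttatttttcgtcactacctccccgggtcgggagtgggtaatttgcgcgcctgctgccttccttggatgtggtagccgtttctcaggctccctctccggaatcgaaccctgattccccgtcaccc
2400 reads, family of 221, chr6:14198991-14199075, plus strand: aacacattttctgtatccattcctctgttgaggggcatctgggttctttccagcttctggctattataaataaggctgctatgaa
2350 reads, family of 2, chr6:49236470-49236552, minus strand: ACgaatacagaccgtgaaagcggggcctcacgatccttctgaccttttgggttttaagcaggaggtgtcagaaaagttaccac
The next sequences come from clusters alone in their family. They are shown for having the most reads of that kind, for lying beside a gene, or for lying farthest from any gene.
nearest gene Elavl4, 96 reads, chr4:110103447-110103531, minus strand: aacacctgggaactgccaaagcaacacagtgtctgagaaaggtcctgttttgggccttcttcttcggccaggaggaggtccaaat
nearest gene Gm45949, 69 reads, chr13:46111639-46111723, plus strand: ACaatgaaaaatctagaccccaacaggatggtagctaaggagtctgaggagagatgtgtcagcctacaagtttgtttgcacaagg
nearest gene Edil3, 52 reads, chr13:88782666-88782750, minus strand: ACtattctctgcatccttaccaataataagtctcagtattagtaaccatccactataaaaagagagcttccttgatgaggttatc
downstream of 2700089I24Rik, 33 reads, chr19:59564280-59564364, plus strand: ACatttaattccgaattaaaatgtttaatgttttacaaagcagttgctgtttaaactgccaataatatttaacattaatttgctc
upstream of Dis3l, 38 reads, chr9:64342743-64342826, plus strand: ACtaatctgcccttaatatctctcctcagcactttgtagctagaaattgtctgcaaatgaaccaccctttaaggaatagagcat
farthest from a gene, 11 reads, chr6:20403020-20403104, plus strand: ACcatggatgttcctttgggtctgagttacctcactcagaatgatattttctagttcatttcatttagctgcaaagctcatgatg
The last sequences are pairs of neighbouring clusters on opposite strands, shown for the way their 5′ ends lay, which is described further on.
facing pair near Platr26, 28 reads, chr2:71685762-71685844, plus strand: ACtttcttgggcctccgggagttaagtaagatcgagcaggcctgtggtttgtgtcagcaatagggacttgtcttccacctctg
facing pair near Platr26, 40 reads, chr2:71685856-71685941, minus strand: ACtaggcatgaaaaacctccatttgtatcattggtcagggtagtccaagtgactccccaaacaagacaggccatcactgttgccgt
back-to-back pair near Sh3pxd2b, 17 reads, chr11:32432851-32432936, plus strand: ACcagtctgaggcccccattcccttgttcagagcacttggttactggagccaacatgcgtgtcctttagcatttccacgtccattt
back-to-back pair near Sh3pxd2b, 14 reads, chr11:32432766-32432850, minus strand: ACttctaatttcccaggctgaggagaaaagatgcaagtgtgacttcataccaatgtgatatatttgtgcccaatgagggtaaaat

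Most of the intergenic clusters were small and alike in size, and a few held most of the reads. The median was 13 reads (quartiles 9 to 18, range 3 to 5671), against 14 for the list. The 1208 clusters alone in their family ranged from 5 to 96 reads with a median of 13, and held 16939 reads or 21.3% of the reads of intergenic clusters with a sequence listed once. The 210 clusters in shared families ranged from 3 to 5671 reads with a median of 22.5 and held 62520 reads, or 78.7%. All of the 54 clusters with the most reads were in shared families. The 10 clusters with the most reads held 37390 reads, 47.1% of the sum. The same read may have been counted at several copies of a sequence, and whether it was so was not tested.

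**Figure D1:**
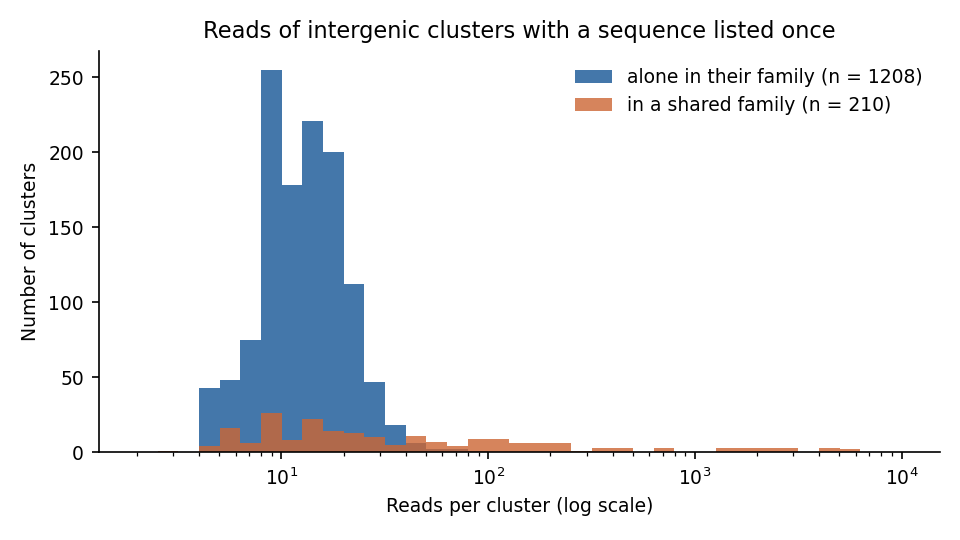
Number of clusters (y axis) by reads per cluster (x axis, log scale) for the 1208 intergenic clusters alone in their family (blue) and the 210 in a shared family (orange). The blue clusters stop at 96 reads, and the orange ones run on to 5671.

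Reads at or above the median of the list, 14 or more, were found in 671 of 1418 intergenic clusters (47.3%, Wilson 95% interval 44.7 to 49.9) and in 941 of 1822 clusters inside genes (51.6%). The odds ratio was 0.84, and the difference missed the threshold of 0.05 in a two-sided Fisher exact test with Benjamini-Hochberg adjustment over the 9 tests reported here (adjusted p = 0.0721). Here and below, every interval and test covers counting error alone: clusters are not replicates of a condition, and without molecular identifiers several reads can stem from 1 molecule. A p-value above the threshold does not show that 2 shares are equal. Among clusters alone in their family the shares were 44.1% and 49.2%, and the same exact test passed (adjusted p = 0.0323). With intronic clusters as the comparison the shares were 47.3% and 47.1% (exact test, adjusted p = 0.948). Within the intergenic set, 138 of 210 clusters in shared families (65.7%) reached the list median against 533 of 1208 clusters alone (44.1%), an odds ratio of 2.43. Copies of 1 sequence are not independent, so the test was made with 1 value per family: in 32 of 44 shared families (72.7%, interval 58.2 to 83.7) the median cluster reached the list median (two-sided Fisher exact test against clusters alone, adjusted p = 0.000285 over 2 such comparisons).

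The clusters with the most reads repeated a few sequences at many loci. The first, with 5671 reads, lay 28.4 kb upstream of Gm44212, a processed pseudogene, which is a gene copy made from an mRNA. The next had 5660 reads and lay 45.1 kb upstream of Gm44161, another processed pseudogene. Clusters with 4424 reads near Gm45677, 4415 reads near the microRNA gene Mir6356 and 4386 reads near the antisense gene Gm15569 belonged to the same family of 15. Copies of that family with a sequence listed once inside genes had 4413 reads in Cmss1 and Filip1l, 4414 in D130009I18Rik, 4416 in Arhgap21, 5639 in Sspn and 257 in Gm19951. All but the last were close to a count of the intergenic copies. The 5 intergenic copies with a sequence listed once held 24556 reads, or 30.9% of the reads of the 1418 clusters. None of them shared a 30-base word with an annotated transcript.

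As background, the printed sequences of the families of 15, 25 and 2 are recognisable as ribosomal RNA of the large subunit, in one orientation or the other. No reference for that RNA was used here, so this was not matched by computation. For the small subunit a match could be made. Next to Gm2651, a processed pseudogene, 9 clusters with 7850 reads lay between 6.39 and 7.07 kb upstream of the gene, all in 1 family. The 2 largest, with 2767 and 2541 reads, had 110 of 110 words of 30 bases in common with CT010467.1, annotated as ribosomal RNA. In all, 10 intergenic clusters with 7939 reads shared a word with that gene. A cluster of 2776 reads lay 20.4 kb downstream of the lincRNA gene Gm37350, on the strand opposite to it. The cluster of 2350 reads lay 7.41 kb downstream of Tra2a, which encodes a splicing regulator, on the strand of the gene. It shared words with 1 annotated gene, Lars2, the mitochondrial leucyl-tRNA synthetase. Which of these loci its reads came from was not tested.

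The family with most members in this set was the one of 221 clusters, 60 of which were intergenic with a sequence listed once. They lay on 21 chromosomes and held 12416 reads, 15.6% of the sum, with a median of 25 and a range of 6 to 2400. Its largest cluster lay 85.6 kb downstream of the snoRNA gene Gm23760 and shared words with transcripts of 208 annotated genes. The family of 268 came next with 29 clusters, 1721 reads and a median of 18. Across the whole set, 314 clusters (22.1%) shared a 30-base word with some annotated transcript, 184 of 210 in shared families and 130 of 1208 alone. None of the 1418 overlapped any of 1005 microRNA hairpins of RefSeq. The set leaves out clusters with a midpoint in any GENCODE gene, the 2207 microRNA genes included. The rule thus left little room for such an overlap.

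The clusters alone in their family had no read counts of that size. Whether any of them matched ribosomal RNA of the large subunit or a repeat was not tested. The most reads, 96, fell 100.2 kb downstream of Elavl4, which encodes a neuronal RNA-binding protein, on the strand of the gene. The next had 69 reads each and lay 42.9 kb downstream of the lincRNA gene Gm45949 and 58.4 kb downstream of Nebl, which encodes an actin-binding protein. A cluster of 56 bases with 60 reads lay 11.1 kb upstream of 1700092C17Rik. The next in order had 52 reads near Edil3, which encodes a secreted matrix protein, and 50 reads near Gm19080. These 6 clusters were named after their values were seen.

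The sequence of the clusters was first read at its 5′ end. Of the 1418 intergenic clusters, 1216 (85.8%, interval 83.8 to 87.5) began with AC, against 1601 of 1822 clusters inside genes (87.9%), a difference that missed the threshold (odds ratio 0.83, adjusted p = 0.248 in the two-sided Fisher exact test). Past the first 2 bases, AC made up 4.52% of adjacent base pairs. The next most frequent starts were AA, with 120 clusters (8.46%), and AT, with 25 (1.76%). Position 3 was T in 55.9% and G in 1.62% of clusters, while by position 5 the shares were 30.8% T and 22.1% G. The tetramer GTAC, which reads the same on both strands, was found in 4 of 1418 intergenic clusters (0.28%, interval 0.11 to 0.72) and in 17 of 1822 clusters inside genes (0.93%, interval 0.58 to 1.49), and this difference was not tested. Both shares were low beside those of the longer word AATAAA, 6.06% and 5.49%, which is described below. Words differ in base content, and no expected share of GTAC was computed.

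The 5′ end set the 2 kinds of cluster apart. AC began 1137 of 1208 clusters alone in their family (94.1%, interval 92.7 to 95.3) and 79 of 210 in shared families (37.6%, interval 31.3 to 44.3), an odds ratio of 0.038. With 1 value per family, most clusters began with AC in 16 of 44 shared families (36.4%, interval 23.8 to 51.1), which differed from clusters alone (adjusted p = 9.07e-22 over 2 comparisons, two-sided Fisher exact test). In shared families AA was the most frequent start, in 46.2%, against 1.90% of clusters alone. Among clusters alone in their family the intergenic share of AC starts was above that inside genes (94.1% against 91.3%, exact test, adjusted p = 0.0323), which turns the direction seen over all clusters. Against intronic clusters (89.8%) the share of 85.8% was lower past the threshold (exact test, adjusted p = 0.0104).

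The base content was rich in T. Intergenic clusters held 32.1 ± 8.06% T, 27.8 ± 7.43% A, 20.6 ± 5.99% C and 19.5 ± 6.22% G (mean and SD over 1418 clusters, on the strand of the cluster). The G and C share was 40.1 ± 8.35%, with a range of 13.95 to 69.4%, against 41.8 ± 9.20% inside genes and 40.7 ± 8.89% in introns. T outnumbered A in 848 of the 1372 clusters in which they differed (61.8%, interval 59.2 to 64.3), less often than in clusters inside genes (1166 of 1750, 66.6%, odds ratio 0.81). This was the 1 of 9 tests past the threshold (two-sided Fisher exact test, adjusted p = 0.0478). It missed the threshold against intronic clusters (65.1%, exact test, adjusted p = 0.346) and with 1 cluster per locus of 1 kb (62.1% against 66.3%, exact test, adjusted p = 0.0902). Length hardly varied: 1358 of 1418 clusters (95.8%) were 83 to 86 bases long, with a range of 48 to 203.

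Short motifs linked to the ends of transcripts were about as frequent as inside genes. The polyadenylation signal AATAAA was found on the strand of the cluster in 86 of 1418 clusters (6.06%, interval 4.94 to 7.43) and in 100 of 1822 clusters inside genes (5.49%). Its reverse complement TTTATT, which overlaps runs of T, was found in 114 (8.04%) and 137 (7.52%). A run of 5 T was found in 17.5% of intergenic clusters and 20.1% of those inside genes, and a run of 5 A in 12.6% and 11.2%. These shares describe windows of nearly equal length and were not tested.

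Distance to the nearest gene followed that of intergenic sequence. It was measured from the cluster's midpoint for the 1409 clusters that lay between 2 genes, since 8 were on scaffolds with no gene and 1 lay past the last gene of its chromosome. The median was 21.9 kb (quartiles 7.02 to 55.4, largest 567.4), against 20.03 kb (6.78 to 52.7) for all intergenic bases. Within 10 kb of a gene lay 455 clusters (32.3%, interval 29.9 to 34.8), against 32.9% of intergenic bases, and the difference missed the threshold (two-sided exact binomial test, adjusted p = 0.879). Within 1 kb lay 70 clusters (4.97%, interval 3.95 to 6.23) against 4.79% of bases, and beyond 100 kb lay 170. The median read count was 13 or 14 in every distance class from under 1 kb to 500 kb.

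**Figure D2:**
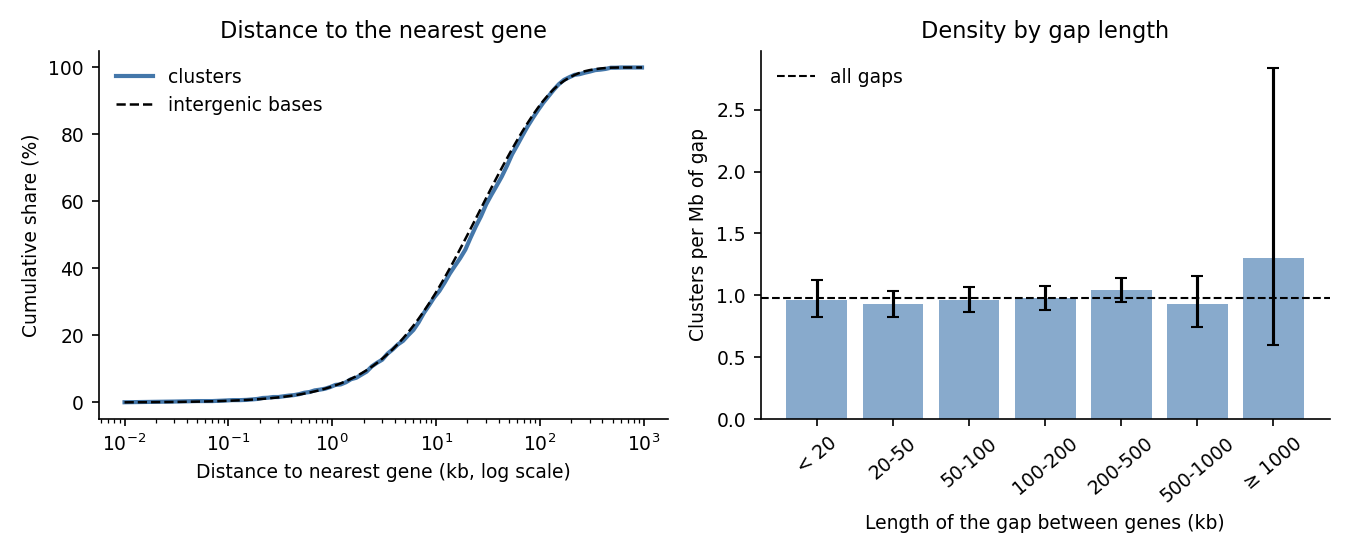
Left, cumulative share of the 1409 clusters (blue) and of intergenic bases (dashed) by distance to the nearest gene in kb on a log scale, and right, clusters per Mb by the length of the gap between genes, with Wilson 95% intervals scaled to the span. The curves nearly coincide, and in each class of gap the interval includes the 0.98 per Mb of all gaps (dashed).

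The kind of the nearest gene also tracked the annotation. It was a processed pseudogene for 437 clusters (30.8%), protein-coding for 421 (29.7%) and a lincRNA gene for 236 (16.6%). The matching shares of intergenic bases were 29.2%, 28.7% and 17.8%. Unprocessed pseudogenes, which are copies made by gene duplication, were nearest to 39 clusters (2.75%) against 5.78% of bases, and microRNA genes to 50 (3.53%) against 2.48%. The base shares include the Y chromosome, which had 7 clusters in 83.2 Mb, and shares without it were not computed. None of these shares were tested.

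Clusters downstream of gene ends were read for the strand that readthrough RNA would have. Of the 455 clusters within 10 kb, 238 (52.3%, interval 47.7 to 56.9) lay downstream of their nearest gene, against 50.6% of the bases (two-sided exact binomial test, adjusted p = 0.868). On the strand of that gene were 120 of the 238 (50.4%, interval 44.1 to 56.7), and the difference from 50% missed the threshold (two-sided exact binomial test, adjusted p = 0.948). Closer to the gene end the counts were 15 of 32 within 1 kb (46.9%, interval 30.9 to 63.6) and 70 of 140 within 5 kb (50%, interval 41.8 to 58.2). The strand of the gene did not take the larger part of the reads either: for clusters alone in their family it held 1397 of 2831 reads within 10 kb (49.3%). Over all clusters it held 43.7% of 12310 reads, a sum in which single clusters of shared families with 2350 and 4386 reads fell on either side. Beside lincRNA genes, 10 of 13 clusters within 5 kb downstream were on the strand of the gene (76.9%, interval 49.7 to 91.8), a subset singled out after its values were seen and not tested. Within 10 kb the count was 16 of 28 (57.1%, interval 39.1 to 73.5) and within 50 kb 43 of 74 (58.1%, interval 46.7 to 68.7). Beside protein-coding genes the count within 5 kb was 29 of 67 (43.3%, interval 32.1 to 55.2).

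Upstream of gene starts the strand was as even. Of the 217 clusters within 10 kb upstream, 105 (48.4%, interval 41.8 to 55.0) were on the strand opposite to the gene, where upstream antisense RNA lies, and the difference from 50% missed the threshold (two-sided exact binomial test, adjusted p = 0.879). Within 1 kb of the start the count was 17 of 38 (44.7%, interval 30.1 to 60.3). By reads, the opposite strand held 8219 of 10985 (74.8%) over all clusters and 1293 of 2635 (49.1%) over clusters alone in their family. The clusters next to Gm2651 made the greater part of the first number.

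**Figure D3:**
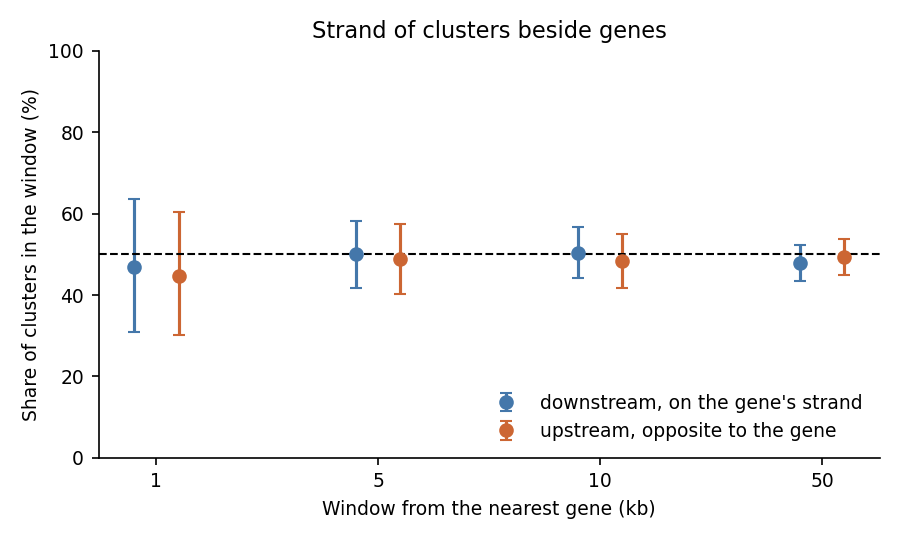
Share of clusters (y axis, %) that lay on the strand of the gene downstream of its end (blue) or on the opposite strand upstream of its start (orange), in windows of 1, 5, 10 and 50 kb from the nearest gene (x axis). Bars are Wilson 95% intervals, and each of the 8 intervals includes 50% (dashed).

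Within 5 kb downstream of a gene and on its strand, the cluster with the most reads, 114, lay 3.28 kb past the end of Gm11668, a processed pseudogene. It was in a family of 4. Another same-strand cluster of 41 reads lay 3.14 kb past that end and was alone in its family. Whether either cluster matched ribosomal RNA of the large subunit was not tested. Other clusters in shared families had 76 reads past Gm47788, 52 past the olfactory receptor gene Olfr796, 41 past the pseudogene Vmn2r-ps149, 34 past Gm1821 and 25 past Usp17le-ps. Those alone in their family had 33 reads past the lincRNA gene 2700089I24Rik, 26 past Gm5418, 25 past the olfactory receptor gene Olfr533 and 25 past Dnajb4. The cluster of Dnajb4, which encodes a co-chaperone, lay 0.44 kb past the end of the gene.

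On the opposite strand within 5 kb upstream, the most reads, 38, lay 1.50 kb before the start of Dis3l, which encodes an RNA exonuclease. Next came 33 reads before Ccny, which encodes a cyclin, 31 before the lincRNA gene Gm49750 and 31 before the pseudogene Gm7405. Clusters of 28 reads lay before Gm14639, 27 before Gm43709, 25 before Aurkb, which encodes a mitotic kinase, and 24 before the lincRNA gene Gm28556. Of these 8 clusters 7 were alone in their family, the exception being that of Gm7405.

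Gene deserts were taken as gaps of at least 500 kb with no annotated gene on either strand. The genome had 130 of them, 85.6 of 1442 Mb between genes, and 59 held a cluster. In deserts lay 81 of 1409 clusters (5.75%, interval 4.65 to 7.09), against 5.93% of intergenic bases (two-sided exact binomial test, adjusted p = 0.924). Most of these deserts, 40, held 1 cluster, 17 held 2, and 1 each held 3 and 4. The density was 0.96 clusters per Mb in gaps under 20 kb (interval 0.83 to 1.12), 1.04 in gaps of 200 to 500 kb (0.95 to 1.14) and 0.93 in gaps of 500 to 1000 kb (0.74 to 1.15). The intergenic clusters were thus spread at nearly 1 per Mb in gaps of any length up to 1000 kb, beyond which 6 clusters gave 1.30 per Mb (0.60 to 2.83).

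The 5 longest deserts with a cluster held 1 or 2 each. The gap of 1255 kb between 9330185C12Rik and Gm4854 on chromosome 1 held 1 cluster of 21 reads. That of 1181 kb between Gm42581 and Gm19102 on chromosome 6 held 1 of 11 reads, 567.4 kb from the nearer of these genes and the farthest of all. The gap between Gm38269 and Gm29514 (1093 kb) held clusters of 11 and 13 reads. Between Gm12004 and 4930554G24Rik (1074 kb) lay clusters of 16 and 17 reads, and between Gm22444 and Mir6238 (965 kb) clusters of 11 and 12. All 8 of these clusters were alone in their family. The 81 clusters in deserts had a median of 12 reads, and the 71 of them alone in their family ranged from 5 to 35.

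Base content moved with the length of the gap. The G and C share of clusters was 41.9 ± 9.31% in gaps under 20 kb, 38.7 ± 7.66% in gaps of 200 to 500 kb, 36.7 ± 7.28% in gaps of 500 to 1000 kb and 28.7 ± 8.65% in the 6 clusters of gaps of 1000 kb or more (mean and SD over clusters). In those 6 the T share was 41.3%. The base content of the gaps themselves was not used here, so these values describe the clusters and were not tested.

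The density of clusters was then taken by chromosome. Over chromosomes 1 to 19 and X it ran from 0.67 clusters per Mb between genes on chromosome 17 (interval 0.47 to 0.94) to 1.26 on chromosome 6 (1.03 to 1.52), and on Y it was 0.08 (0.04 to 0.17). On chromosome 6, 9 clusters lay at the 1 locus next to Gm2651. In clusters alone in their family the density was 0.90 per Mb on chromosome 6 and 1.15 on chromosomes 11 and 19. The X chromosome, where Smchd1 is known to act in female cells, held 107 of 1403 clusters (7.63%, interval 6.35 to 9.13), against 8.56% of intergenic bases (two-sided exact binomial test, adjusted p = 0.523). In clusters alone in their family the X share was 7.25%, and in shared families 9.85% (odds ratio 1.40). Copies of 1 sequence are not independent, so no p-value is given for this difference. Which of the X chromosomes a read came from cannot be told from the list.

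**Figure D4:**
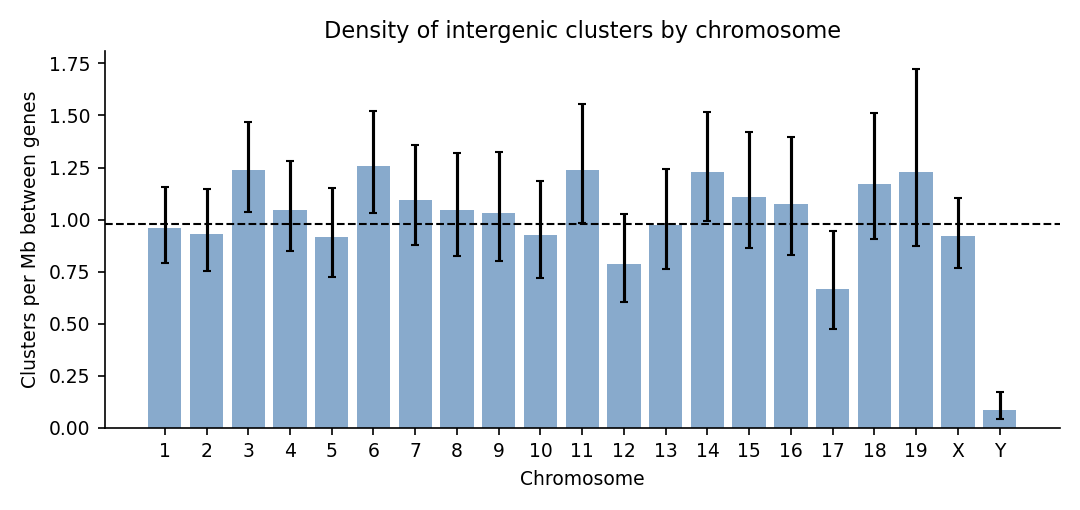
Intergenic clusters per Mb of sequence between genes (y axis) on each chromosome (x axis), with Wilson 95% intervals scaled to the span. By their intervals, chromosome 17 lies below the density over all gaps (dashed, 0.98 per Mb), chromosomes 3, 6, 11 and 14 lie above it, and Y is far below at 0.08. The dashed density includes Y, with 7 clusters in 83.2 Mb, which lowers it. The intervals of chromosomes 11 and 14 begin close to it, at 0.981 and 0.993.

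Genes of lists tied to Smchd1 or to neural cells were next looked up among the nearest genes. Of 55418 annotated gene names, 935 (1.69%) were the nearest gene, within 50 kb, of at least 1 of the 1418 clusters. Against this background, 1 of 46 imprinted genes was such a gene (2.17%). It was Slc22a2, which encodes an organic cation transporter, with 18 reads 3.38 kb upstream on the opposite strand. Of 19 neural stem cell genes 1 was (5.26%), Hes1, a transcriptional repressor of the Notch pathway, with 22 reads 10.8 kb downstream on the opposite strand. Of 15 neuronal genes 1 was (6.67%), Snap25, which encodes a protein of synaptic vesicle fusion, with 16 reads 8.42 kb downstream on the strand of the gene. No such cluster was nearest to any of 14 X inactivation genes, 39 Hox genes, 57 clustered protocadherin genes, 15 astrocyte and oligodendrocyte genes, 16 fibroblast, endothelial and blood genes or 18 nuclear long non-coding RNA genes. With lists this short and a background this low, counts of 0 and 1 do not set the lists apart.

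Clusters seldom gathered. Of the 935 genes, 872 were nearest to 1 cluster, 59 to 2, 2 to 3, 1 to 4 and 1 to 9. The genes with 3 or more were Gm2651 with 9, Gm11668 with 4 (175 reads), Gm15569 with 3 (5218 reads) and the lincRNA gene Gm13994 with 3 (53 reads), and the last was the 1 of these whose clusters were all alone in their family. When clusters within 1 kb were joined, the 1418 made 1360 loci, 47 of which held more than 1 cluster. These 47 loci held 105 clusters. How many such loci an even spread would give was not computed. Whether clusters gathered more or less than that is therefore not stated here.

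Where clusters alone in their family did lie within 1 kb of each other, by their 5′ ends, the pairs were sorted by strand and order. This was done after the sequences had been seen. On opposite strands, 19 pairs faced each other, with the plus-strand 5′ end to the left of the minus-strand 5′ end, and 6 pairs lay back to back. A further 12 pairs lay on 1 strand. In 18 of the 19 facing pairs both clusters began with AC, and their 5′ ends were 145 to 597 bases apart (median 212). The read counts of the 2 strands had a median ratio of the larger to the smaller of 1.43 and a highest ratio of 2. Of the 12 pairs on 1 strand, 11 had AC at both starts, with a median ratio of 1.73 and a highest of 5.86. AC began 94.1% of clusters alone in their family, so AC at both starts is frequent in any pair. The quartiles of such clusters were 9 and 17 reads, and no ratio for unrelated clusters was computed. The facing pair next to Dis3l had 38 and 27 reads with 5′ ends 147 bases apart, and that near Platr26 had 28 and 40 reads and 179 bases. Of the 6 back-to-back pairs, 4 had 5′ ends on neighbouring bases. Both clusters of each of these 4 pairs began with AC, so the junction read GTAC in all 4, as in the printed pair near Sh3pxd2b, with 17 and 14 reads. Whether the list holds fragments cut at GTAC was not tested, and the bases in front of the other clusters were not read here, so AC starts and read counts are given as the list has them.

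Inside genes, pairs were counted in the same way. Among clusters alone in their family there, 36 pairs faced each other and 29 lay back to back, 15 of them with 5′ ends on neighbouring bases. A further 52 pairs lay on 1 strand. Of the 36 facing pairs 27 had AC at both starts, with 5′ ends 143 to 996 bases apart, a median ratio of reads of 1.46 and a highest ratio of 502.5. These counts are descriptions of neighbouring clusters and were not tested.

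**Figure D5:**
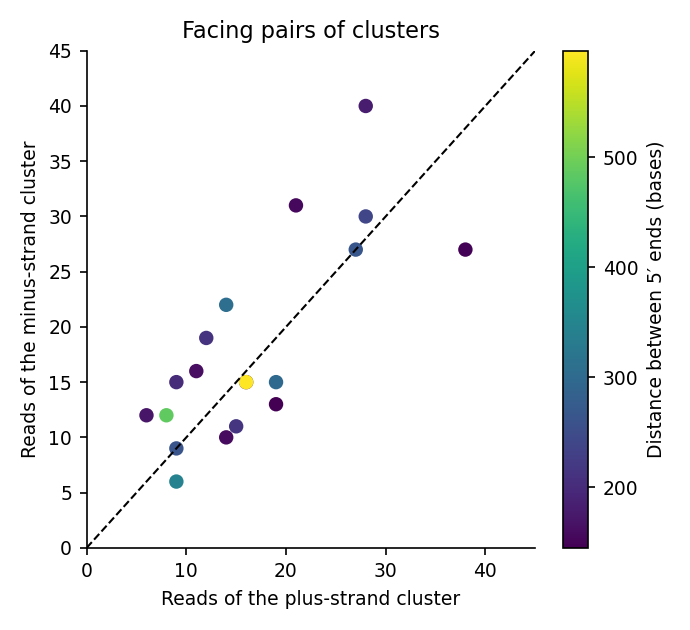
Reads of the plus-strand cluster (x axis) and of the minus-strand cluster (y axis) in the 19 facing pairs of intergenic clusters alone in their family, coloured by the distance between their 5′ ends in bases. The dashed line marks equal counts, and no pair differs by more than a ratio of 2.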

How the data were processed

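A single table of clusters accompanies the 12 libraries. It gives a read count for each cluster, as deposited by the authors, not normalized and not split by sample. The submitters' processing notes name bcl2fastq, TopHat2 2.1.0 and the build mm10. The cluster caller, its thresholds and the libraries that it read were not given in the sources used here. Depth per library is therefore unknown.

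Genes were those of GENCODE vM21 (55536 genes) on GRCm38, the assembly of mm10, and RefSeq genes and hairpins those of GRCm38.p6. Genome sequence, assembly gaps and repeat annotation were not used here. Clusters sharing a word of 30 bases on either strand formed a family. Distances run from the midpoint to the nearest gene edge on either strand, and intergenic bases between genes were the reference.

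Shares have Wilson 95% intervals. The 9 tests (threshold 0.05) were two-sided Fisher exact or exact binomial tests, adjusted together by Benjamini-Hochberg. The distance functions and the binomial test of the share within 10 kb were tried on simulated data, the other tests were not. Alternatives changed the family, locus, chromosome, gene, window, desert and comparison choices. Named genes were those nearest to the 10 clusters with the most reads, those nearest to the most clusters, up to 10 with a same-strand cluster within 5 kb downstream and 8 with an opposite-strand cluster within 5 kb upstream, those at the edges of the 5 longest deserts with a cluster, and list genes. The set of clusters, the gene lists and the tests were chosen with earlier results of these data known. The comparison of shared families with clusters alone, the RefSeq and 1-per-family alternatives and the pairs of 5′ ends were added after seeing the data. Python 3.11.15, pandas 2.3.3, numpy 2.4.6, scipy 1.17.1 and matplotlib 3.10.9 were used.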

Additional observations from a re-analysis of the deposited data

Results flagged for a closer look

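The labels call the cells female, yet on the Y chromosome there were 7 intergenic clusters with a sequence listed once, with 341 reads (range 9 to 132, median 28). Every cluster of the list has at least 2 reads, so these counts cannot be tested against 0. Of these 7, 5 belonged to the family of 221 clusters, and the 2 that were alone in their family had 28 and 17 reads, near Gm29001 and Gm29089. The origin of these reads was not tested. On unplaced or unlocalized scaffolds there were 8, with 254 reads (range 5 to 176, median 11) on 4 scaffolds, and 6 of the 8 were alone in their family.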

How the results depend on the processing

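No paired analysis was possible because the list has no column per sample, and leaving out replicates could not be run for the same reason. Of 66 alternative values, 47 kept their direction and side of the threshold. For the share within 10 kb of a gene, which missed the threshold in every setting, the direction against intergenic bases turned for clusters alone in their family (33.1%), for 1 cluster per family (33.3%), with protein-coding genes only (17.1% against 15.5%) and with RefSeq genes added (35.7%). The share downstream of the nearest gene turned in a window of 50 kb (50.7%). The share on the gene's strand downstream turned there (47.9%) and at or above the list median (46.9%), and so did that on the opposite strand upstream at or above the median (52%). For deserts it turned at 1000 kb (0.43% against 0.32%) and 200 kb (30.4% against 29.0%). None of these passed the threshold. AC starts turned for clusters alone (94.1%) and 1 per family (92.3%), and passed the threshold against introns (85.8% against 89.8%). The reads result turned against introns (47.3% against 47.1%), and passed for clusters alone (44.1%), 1 per family (45.4%) and a bound of 2 times the median (10.3% against 14.2%). More T than A lost the threshold with 1 per locus (62.1%) and against introns (61.8% against 65.1%). The causes were not tested. The 1-per-family, shared-family and RefSeq settings were chosen after seeing the data. A median of 13 reads per cluster, without values per library, limits every comparison of single clusters.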

Other observations

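RefSeq annotates genes over some of the clusters that lie in no GENCODE vM21 gene. Of the 1418, 118 (8.32%) had their midpoint in such a gene, 91 in lncRNA genes, 19 in protein-coding genes and 7 in pseudogenes, and a cluster can lie in more than 1. Of the 1409 between genes the share was 8.37% (Wilson interval 7.04 to 9.94), against 6.32% of intergenic bases, a comparison that was not tested. The clusters with the most reads among them had 4415 reads in Gm30821, 397 in Gm33752 and 114 and 41 in Gm36876, all lncRNA genes. The last 2 are the clusters past the end of Gm11668.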
